A study of Mus musculus with 4 samples.

Results

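The genes described here are 7 mouse genes of the fetal growth programme, chosen by name out of 53465 genes counted in each library. They are Igf2bp1, Igf2bp2 and Igf2bp3, which encode the IGF2 mRNA-binding proteins, Lin28a and Lin28b, which encode RNA-binding proteins that hold back let-7 microRNAs, and Hmga1 and Hmga2, which encode AT-hook chromatin proteins. All 7 have a row in the count files. They were measured by RNA sequencing in 4 libraries of Fgf10-positive cells sorted from the mouse submandibular gland, a salivary gland. The adult group (ADU) holds 2 libraries from C57BL/6J mice that received tamoxifen within days 57 to 58 after birth and were taken at day 60. The pup group (PUP) holds 2 libraries from mice of that strain that received tamoxifen within days 4 to 5 and were taken at day 7. Both ages carried the genotype Fgf10CreERT2:Rosa26Tomato fl/fl and received 0.1 mg of tamoxifen per g of body weight. In such mice the Fgf10 locus drives a tamoxifen-dependent Cre, so the red reporter marks cells that expressed Fgf10 when the drug was given. The series set out to compare Fgf10-expressing cells of the 2 ages.

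LIN28A and LIN28B bind the precursors of let-7 microRNAs and block their maturation, and they are known for high levels in embryonic cells. Mature let-7 in turn lowers the output of mRNAs that carry matches to its seed, the stretch at the start of the microRNA that pairs with targets, and mRNAs of the LIN28, IGF2BP and HMGA families are among its textbook targets. The IGF2BP proteins bind mRNAs and affect their stability, localization and translation, and IGF2BP1 and IGF2BP3 are often called oncofetal because most adult tissues hold little of them.

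The sequences that tie the 7 genes to let-7 are shown first. RefSeq (GRCm38.p6) lists 11 mature sequences of the mouse let-7 family, 10 of which share 1 seed. Below are 4 of these 10 and let-7j, the one that differs. Bases 2 to 8, the seed, are in capitals.
mmu-let-7a-5p: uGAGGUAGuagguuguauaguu
mmu-let-7d-5p: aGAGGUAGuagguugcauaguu
mmu-let-7g-5p: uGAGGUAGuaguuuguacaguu
mmu-miR-98-5p: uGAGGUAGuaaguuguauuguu
mmu-let-7j: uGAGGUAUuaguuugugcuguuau

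The DNA letters complementary to the shared seed, CTACCTC, were searched on the transcript's own strand in the 3′ UTR of 1 GENCODE vM21 transcript per gene (GRCm38). Each of the 7 genes held at least 1 match. The first match of each is printed below, 5′ to 3′ along the mRNA and with the match in capitals, since these are the stretches a let-7 microRNA could pair with.
Igf2bp1: tgcgaagtaaaCTACCTCaagg
Igf2bp2: acaaataaaagCTACCTCaggt
Igf2bp3: tttttactcaaCTACCTCaggt
Lin28a: agcctgttgaaCTACCTCattt
Lin28b: gggcgggaagtCTACCTCatgc
Hmga1: ctgttcacaaaCTACCTCtgga
Hmga2: acattcaatttCTACCTCagca

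These stretches lie at chr11:95961775-95961796 (minus strand) for Igf2bp1, chr16:22059470-22059491 (minus) for Igf2bp2, chr6:49086784-49086805 (minus) for Igf2bp3, chr4:134005186-134005207 (minus) for Lin28a, chr10:45381019-45381040 (minus) for Lin28b, chr17:27563281-27563302 (plus) for Hmga1 and chr10:120364221-120364242 (minus) for Hmga2. In Igf2bp2 and Igf2bp3 the match is followed by the same 4 bases. Hmga1 is the only one of the 7 whose printed match is not followed by an A, a base known to favour targeting by microRNAs. Igf2bp1, Lin28b and Hmga2 each held 4, Lin28a held 2, and Igf2bp2, Igf2bp3 and Hmga1 held 1. Over the 20979 genes with a 3′ UTR, 8.96% held at least 1. A long UTR holds a given 7-base word more often, so each gene was also set beside UTRs between 0.8 and 1.25 times its own length. Among UTRs like that of Hmga2 (3014 bases), 16.1% held a match and 0.124% held 4 or more. The 3 genes with 4 matches thus held more than nearly all UTRs of their size. For Lin28b (4445 bases) these shares were 24.1% and 0.297%, and for Igf2bp1 (6337 bases) they were 34.4% and 0.332%. For Lin28a (2775 bases), 14.8% of like UTRs held a match and 2.03% held 2 or more. A match was found in 12.1% of UTRs like that of Igf2bp2 (1784 bases), 13.3% of those like that of Igf2bp3 (2119 bases) and 8.12% of those like that of Hmga1 (1183 bases). A match describes these letters and is not evidence of binding in these cells.

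The libraries differed in quality, and pup replicate 1 stood apart. Reads counted on genes numbered 13791730 and 16585518 in adult replicates 1 and 2, and 7289792 and 21490686 in pup replicates 1 and 2. In pup replicate 1, 76.7% of the tallied reads overlapped no counted feature, against 9.70% to 10.6% in the other 3 libraries. The tally does not tell introns from stretches between genes. Of 1134 olfactory receptor genes, which salivary gland cells should not transcribe, 96.5% had a count in pup replicate 1, against 1.59% to 7.67% in the others. These genes collected 13.99 counts per kb of exon in pup replicate 1, against 0.0661 to 0.151 in the others. That rate multiplied by a gene's exon length is called the expected background of pup replicate 1 below. Levels are given as CPM, read counts relative to the size of the library, with TMM factors that correct for library composition, and 3 counts correspond to 0.157 to 0.290 CPM. Whether the 2 replicates of an age were separate animals is not stated in the labels. Each p-value therefore reflects the spread between libraries, which may be technical.

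Across the 7 genes, Igf2bp3 and Igf2bp2 were lower in both adult libraries, Hmga1 showed no age difference that passed a test, and the other 4 genes had counts in pup replicate 1 only. The quasi-likelihood test of edgeR, applied to 16320 genes that passed its filter on low counts, called 0 of the 7 genes and 0% of all genes in either direction at an adjusted p under 0.05. At an unadjusted p under 0.05, edgeR had 978 genes higher and 1385 lower in adults, and Igf2bp2 and Igf2bp3 were among the lower ones. DESeq2 on these genes called 2 of the 7, Igf2bp2 and Igf2bp3, lower in adults, where it called 5.28% of all genes lower and 3.74% higher. On simulated counts with the spread of these libraries DESeq2 made many more false calls than edgeR, so its adjusted p-values are to be read with that in mind. In turn, edgeR missed more of the changed genes there. That simulation left out the background of pup replicate 1. In it edgeR called genes, but here it called 0, so the simulation does not reproduce these libraries. The filter passed 3 of the 7 genes, Igf2bp2, Igf2bp3 and Hmga1. In all 3 both adult libraries lay below both pup libraries, a pattern held by 25.1% of all genes tested (the opposite pattern was held by 23%). For Igf2bp3 this was fixed by the filter, which a gene at 0 in both adults passes only through the pups. The plot of levels by library shows all 7 genes.

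**Figure D1:**
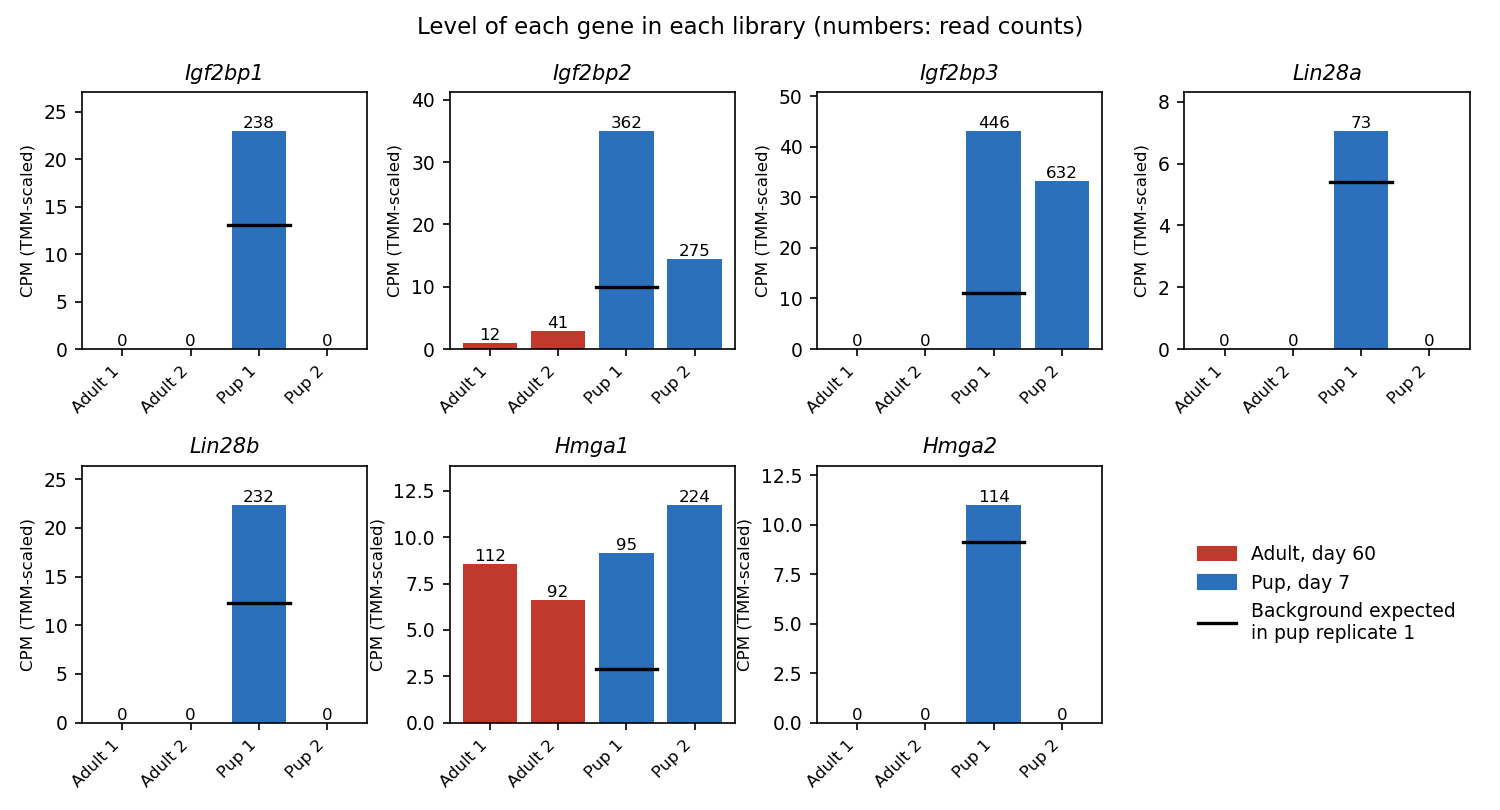
Level of each of the 7 genes in each library, in TMM-scaled CPM on a linear axis from 0, adults in red and pups in blue, with the read count above each bar. The black line is the background expected in pup replicate 1. Igf2bp3 has 0 counts in both adults and 446 and 632 in the pups, while Igf2bp1, Lin28a, Lin28b and Hmga2 have counts in pup replicate 1 only.

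Igf2bp3 (ENSMUSG00000029814, chr6:49085223-49214957, minus strand, GRCm38) had 0 and 0 counts in the adult libraries, against 446 and 632 counts in the pup libraries. These were 0 and 0 CPM in adults, against 43.1 and 33.2 CPM in pups (mean 38.1 ± 6.98, SD, n = 2). Both pups lay far above both adults, and the groups did not overlap. Taking 3 counts over both adult libraries as the floor, the pooled pup level makes Igf2bp3 at least 329-fold lower in adults. From pup replicate 2 alone it was at least 298-fold lower, and with the expected background of pup replicate 1 removed, at least 295-fold lower. These limits cover counting error only, and the adult libraries differed by more than that. H19 had 65 and 0 counts in adult replicates 1 and 2, and Cd44 had 0 and 496. Igf2bp3 was thus not detected in either adult library while it was well covered in both pup libraries. The background expected in pup replicate 1 was 114 counts, and the gene had 3.91 times that. It was also the member with the highest rate there, 54.7 counts per kb, a rate that 2.03% of olfactory receptor genes reached.

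The fitted log2 fold change of Igf2bp3 was -12.14 ± 1.30 (SE) with an adjusted p of 0.162 by edgeR, and -11.62 ± 1.71 with an adjusted p of 2.48e-09 by DESeq2. Against libraries at 0 such a fitted value depends on the prior count and is no bound, and its SE is no measure of precision. Over 15 alternative fits with edgeR, DESeq2 and limma-voom the adjusted p of Igf2bp3 lay between 1.12e-09 and 0.349, the highest being that of edgeR without pup replicate 1. It was under 0.05 in 7 of the 15. With edgeR these were the fit with no filter on low counts, in which 0.508% of all genes were called lower, the fit without adult replicate 1 (adjusted p = 4.07e-06, 0.987% called lower) and the fit without adult replicate 2 (adjusted p = 1.87e-06, 4.49% called lower). In each fit without 1 adult library, the spread comes from the pups alone and the lone adult is assumed to vary as they do. The other 4 were DESeq2 fits, in which 5.28% of genes were called lower with the edgeR filter, 5.29% with the background of pup replicate 1 subtracted, 7.11% with a stricter filter and 2.51% with none. In the edgeR fit with that background subtracted, the adjusted p of Igf2bp3 was 0.0537.

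The counts of Igf2bp3 were also set beside those of a neighbour. The end of its last exon overlaps Malsu1, a gene for a mitochondrial ribosome factor on the other strand, over 18.7% of the exon length, and the library kit does not mark strand. Malsu1 had 393 and 439 counts in adults, against 165 and 425 counts in pups, so it was well covered in the adult libraries in which Igf2bp3 stood at 0. Over the other 6 genes, at most 5.86% of the exon length is shared with another gene. Of 21942 protein-coding genes, 7178 were at 0 in both adults. Of these, 421 had 10 or more counts in both pups, Igf2bp3 among them.

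Igf2bp2 (ENSMUSG00000033581, chr16:22059009-22163299, minus strand), the member of the family that adult tissues commonly express, was present at both ages. It had 12 and 41 counts in adults, against 362 and 275 counts in pups. As levels these were 0.919 and 2.95 CPM in adults (mean 1.93 ± 1.44), against 34.9 and 14.4 CPM in pups (mean 24.7 ± 14.5, SD, n = 2 each). Both adults were low and the groups did not overlap, although the 2 libraries of each age also differed from each other. The log2 fold change was -3.78 ± 1.12 with an adjusted p of 0.276 by edgeR, and -3.90 ± 1.10 with an adjusted p of 0.00813 by DESeq2.

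For Igf2bp2 the expected background of pup replicate 1 was 104 counts, 28.6% of its count there. With that background subtracted at an unchanged library size, pup replicate 1 held 24.9 CPM, still above both adults and pup replicate 2. The edgeR fit on subtracted counts, with its scaling redone, gave a log2 fold change of -3.81 (adjusted p = 0.236). The value moved with single libraries. The edgeR log2 fold change of Igf2bp2 was -2.90 (adjusted p = 0.545) without pup replicate 1 and -4.85 (adjusted p = 0.0393) without adult replicate 2, where edgeR called 4.49% of genes lower.

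Igf2bp1 (ENSMUSG00000013415, chr11:95957163-96005940, minus strand), the third member of the family, had 0 and 0 counts in adults, against 238 and 0 counts in pups. Only pup replicate 1 had any, and its group overlapped the adults because pup replicate 2 was at 0 as they were. The background expected in pup replicate 1 was 135 counts, so the observed count was 1.76 times that, and 16.2% of olfactory receptor genes had a rate per kb as high. If the excess over background had been present at one level in both pups, pup replicate 2 would have held about 189 counts, where it held 0.

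Lin28a and Lin28b, the let-7 regulators, showed the same distribution over the libraries as Igf2bp1. Lin28b (ENSMUSG00000063804, chr10:45376620-45486395, minus strand) had 0 and 0 counts in adults, against 232 and 0 counts in pups. Its count in pup replicate 1 was 1.83 times the expected background of 127, and 15.3% of olfactory receptor genes reached its rate. The excess, at one level, would have given about 193 counts in pup replicate 2. Lin28a (ENSMUSG00000050966, chr4:134003330-134018841, minus strand) had 0 and 0 counts in adults, against 73 and 0 counts in pups. That was 1.31 times the expected 55.9 counts, and 26.7% of olfactory receptor genes had a rate as high. Neither Lin28 gene had a count in the 3 libraries with little background.

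Hmga2 (ENSMUSG00000056758, chr10:120361275-120476469, minus strand), the fetal HMGA gene and the classical let-7 target, had 0 and 0 counts in adults, against 114 and 0 counts in pups. It was the closest of the 7 to the background, with 1.20 times the expected 94.7 counts and a rate reached by 30.1% of olfactory receptor genes. At 3 counts, the level that a count of 0 allows was up to 0.230 and 0.216 CPM in adult replicates 1 and 2 and up to 0.157 CPM in pup replicate 2. This limit, which covers counting error only, holds for Igf2bp1, Lin28a, Lin28b and Hmga2 alike. Without pup replicate 1 both ages were at 0 for these 4 genes, so a fold change fitted to them is no estimate of an age difference.

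Many genes shared this distribution. Of the protein-coding genes, 5304 were at 0 in both adults and in pup replicate 2 and had counts in pup replicate 1. Among 2285 autosomal protein-coding genes at 0 in the other 3 libraries, olfactory receptors and the 4 genes left out and with at least 2 kb of exon, the median rate in pup replicate 1 was 11.5 counts per kb and the 95th percentile was 37.0. The rates of the 4 genes, 16.8 for Hmga2, 18.3 for Lin28a, 24.6 for Igf2bp1 and 25.6 for Lin28b, lay between those values. The rates of Hmga1 (44.7), Igf2bp2 (48.9) and Igf2bp3 (54.7) lay above the 95th percentile, as the plot of rates shows. Igf2bp1, Lin28a, Lin28b and Hmga2 did not pass the edgeR filter. With all 45490 genes that had a count left in, DESeq2 called 2 of the 4, Igf2bp1 (adjusted p = 1.44e-11) and Lin28b (adjusted p = 1.82e-11), lower in adults from the 1 library, where it called 2.51% of genes lower. In the unfiltered edgeR fit the adjusted p was 0.181 for Igf2bp1, 0.203 for Lin28b and 0.716 for both Lin28a and Hmga2.

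**Figure D2:**
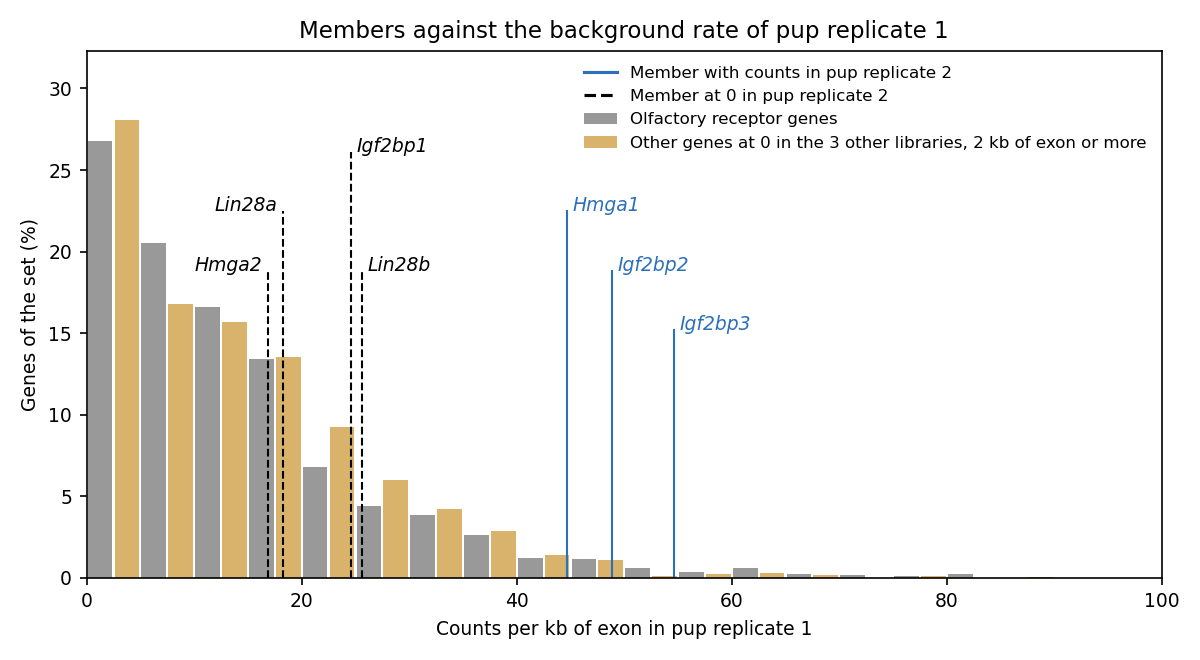
Share of genes (%) by counts per kb of exon in pup replicate 1, in bins of 5 counts per kb, with both bars of a bin side by side: grey, 1134 olfactory receptor genes, and gold, 2285 other genes at 0 in the other 3 libraries. In each set 2 genes lie beyond the axis. Lines mark the 7 genes. The dashed lines of the 4 genes at 0 in pup replicate 2 stand at 16.8 to 25.6, inside both distributions, and the solid lines of Hmga1, Igf2bp2 and Igf2bp3 stand at 44.7 to 54.7, in their tails.

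Hmga1 (ENSMUSG00000046711, chr17:27556497-27563674, plus strand), the HMGA gene that proliferating adult tissues also express, was present in every library. It had 112 and 92 counts in adults, against 95 and 224 counts in pups. The levels were 8.58 and 6.62 CPM in adults (mean 7.60 ± 1.39), against 9.17 and 11.8 CPM in pups (mean 10.5 ± 1.83, SD, n = 2 each). Both pups lay above both adults, but by a margin smaller than the gap between the 2 adults. With the background of 29.7 counts removed at an unchanged library size, pup replicate 1 held 6.30 CPM, below both adults. That library size still includes background reads, so this overlap depends on the scaling. The edgeR fit on subtracted counts, with its scaling redone, gave a log2 fold change of -0.52 (adjusted p = 0.888). The log2 fold change was -0.54 ± 1.08 with an adjusted p of 0.882 by edgeR, and -0.60 ± 0.96 with an adjusted p of 0.822 by DESeq2, so an age difference was not detectable at this spread.

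A near-identical copy of Hmga1, Hmga1b on chr11 (ENSMUSG00000078249), had 3.37 and 6.11 CPM in adults, against 7.34 and 8.82 CPM in pups. Reads that fit both could have been split or dropped, so the level of either alone is uncertain. Summed, the 2 genes held 11.9 and 12.7 CPM in adults, against 16.5 and 20.6 CPM in pups, a log2 ratio of means of -0.59 with no test.

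Per kb of exon, which allows levels to be set side by side between genes, Hmga1 held 4.04 and 3.11 CPM per kb in adults, Igf2bp2 held 0.124 and 0.398, and the other 5 genes held 0. In pups, Igf2bp3 held 5.28 and 4.07 CPM per kb, Hmga1 4.32 and 5.53, and Igf2bp2 4.72 and 1.95. The ranges of these 3 genes overlapped in pups, so their order is not resolved there. In adults Hmga1 stood above Igf2bp2 in both libraries with no overlap.

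**Figure D3:**
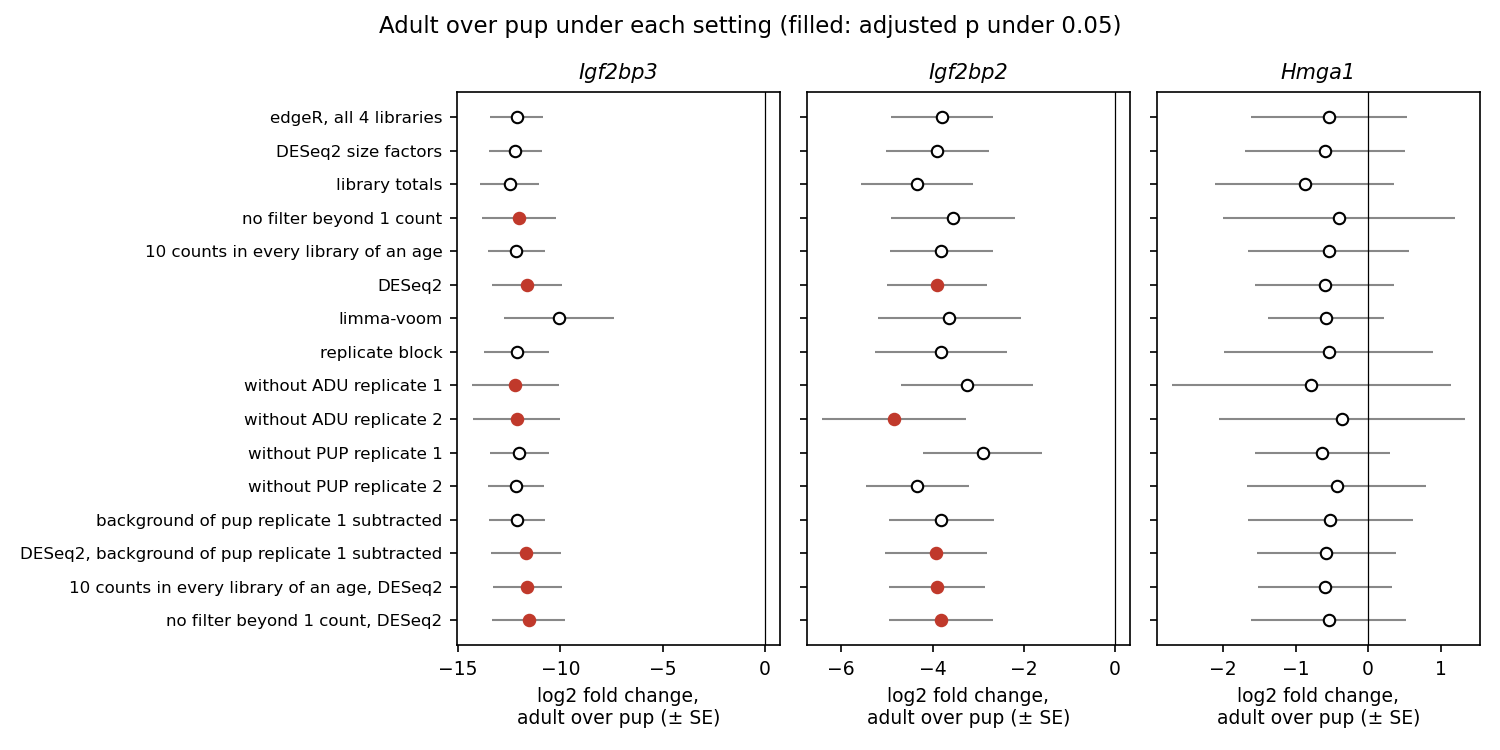
The log2 fold change of Igf2bp3, Igf2bp2 and Hmga1, adult over pup, with its SE as a bar, under edgeR and 15 alternative settings, filled where the adjusted p was under 0.05. All values of the 3 genes lie below 0. Those of Igf2bp3 lie between -12.48 and -10.05 and those of Igf2bp2 between -4.85 and -2.90, while those of Hmga1 lie between -0.87 and -0.36 with bars that all reach across 0.

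The genes whose pattern over the 4 libraries was most like each member's were found by the root mean square difference of centred log2(CPM + 1) profiles. For Igf2bp3 these were Igdcc4 (0.221), a let-7 target that encodes an immunoglobulin-family membrane protein, Cenpf (0.259), a centromere protein of dividing cells, and Svopl (0.397), a transporter-like gene. Igdcc4 had 0 and 6 counts in adults, against 519 and 919 counts in pups, and Cenpf had 0 and 0 counts in adults, against 306 and 706 counts in pups. For Igf2bp2 they were the transcription factor gene Klf12 (0.114), Tro (0.114) and Iqgap3 (0.116), and for Hmga1 they were Zfp574 (0.0344), Bet1l (0.0460) and Krt10 (0.0502). With 4 libraries these are descriptions of the profiles only.

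The upstream side of the pathway, the let-7 machinery, was set beside all genes. Of 17 genes for let-7 biogenesis and decay, all tested, edgeR called 0 (2 lower at an unadjusted p under 0.05) and DESeq2 called 1 lower and 0 higher in adults. Over all 16320 genes DESeq2 called 5.28% lower and 3.74% higher, and edgeR had 1385 lower at an unadjusted p under 0.05. The median log2 fold change of the 17 was -0.08, beside -0.24 over all genes tested, and 11 of 17 were negative, beside 57.1% of all genes. Without pup replicate 1 the median was -0.37, beside 0.04 over all genes. With the background of pup replicate 1 subtracted it was -0.07, beside -0.06. The one called was Trim71, a stem-cell RNA-binding protein and itself a let-7 target, with 0 and 0 counts in adults, against 156 and 46 counts in pups. The background expected for Trim71 in pup replicate 1 was 131 counts. From pup replicate 2 alone Trim71 was at least 21.7-fold lower in adults, a limit that covers counting error only. Its edgeR adjusted p was 0.273 and its DESeq2 adjusted p 0.00233. The Argonaute gene Ago4 had a log2 fold change of -2.32 ± 0.88 and Dgcr8, the partner of Drosha in cutting primary microRNAs, one of -1.18 ± 0.89, neither of them called. The helicase genes Ddx5 (-0.17 ± 0.74) and Ddx17 (0.00 ± 0.63) had the highest levels of the list.

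The let-7 microRNAs themselves are not measured by poly(A)-primed cDNA libraries of this kind. The 12 let-7 precursor genes in the annotation held 5 and 9 counts in total in adults, against 19 and 4 counts in pups, with no gene above 10 counts in a library. Mir99ahg, the host transcript of a let-7c copy, had 10.8 and 11.4 CPM in adults, against 45.4 and 13.2 CPM in pups, and 200 of its 470 counts in pup replicate 1 were expected as background. Its log2 fold change was -1.53 ± 0.82 (edgeR adjusted p = 0.479) and -0.25 without pup replicate 1.

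Downstream, 25 of 26 known let-7 targets outside the 7 genes were tested. DESeq2 called 7 lower and 0 higher in adults, edgeR called 0 (7 lower at an unadjusted p under 0.05), and 19 of 25 were negative with a median log2 fold change of -0.97. Over all 16320 genes DESeq2 called 5.28% lower, edgeR had 1385 lower at an unadjusted p under 0.05, and 57.1% were negative with a median of -0.24. Without pup replicate 1 the median of the 25 was -0.88, beside 0.04 over all genes. With the background of pup replicate 1 subtracted it was -1.08, beside -0.06. The 7 called by DESeq2 were Trim71, Igdcc4, Mycn, Myc, Igf1r, Irs2 and Ccnd2. Igdcc4 had the lowest DESeq2 adjusted p of these, with a log2 fold change of -7.84 ± 1.31 (edgeR adjusted p = 0.164, DESeq2 adjusted p = 9.35e-10). Ccnd2, a cyclin of the G1 phase, had 47.0 and 143 CPM in adults, against 322 and 728 CPM in pups. Irs2, an adaptor of the insulin and IGF1 receptors, had 172 and 245 CPM in adults, against 381 and 676 CPM in pups. In both genes the groups did not overlap, and DESeq2 gave adjusted p-values of 0.00417 for Ccnd2 and 0.0251 for Irs2. The proto-oncogene Mycn had 0 and 1 counts in adults, against 123 and 34 counts in pups, 46.1 of the 123 expected as background (DESeq2 adjusted p = 0.0159).

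Of 8 RNAs that IGF2BP proteins are known to bind, all tested, DESeq2 called 3 lower and 0 higher in adults, edgeR called 0 (3 lower at an unadjusted p under 0.05), and 7 were negative with a median log2 fold change of -2.17, beside the same shares and median over all genes (5.28%, 57.1% and -0.24). With the background of pup replicate 1 subtracted, 6 of the 8 were negative with a median of -2.02, beside 51.7% and -0.06 over all genes. Without pup replicate 1 the median was -2.28, beside 0.04. The 3 called by DESeq2 were H19, Igf2 and Myc. Igf2, the fetal growth factor gene, had 0.0766 and 2.23 CPM in adults, against 26.5 and 53.1 CPM in pups, with a log2 fold change of -5.15 ± 1.42 (edgeR adjusted p = 0.263, DESeq2 adjusted p = 0.00243). H19, the noncoding RNA of that imprinted locus, had 4.98 and 0 CPM in adults, against 470 and 2063 CPM in pups (DESeq2 adjusted p = 0.0276). Both pups were above both adults in each of these genes. Gli1, a Hedgehog pathway transcription factor, had 0 and 15 counts in adults, against 80 and 44 counts in pups, 69.9 of the 80 expected as background. Actb, the cytoskeletal actin whose mRNA IGF2BP1 localizes, had 840 and 1415 CPM in adults, against 394 and 1565 CPM in pups, and a log2 fold change of 0.17 ± 1.04.

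Of 9 genes for other HMG chromatin proteins, DESeq2 and edgeR called 0, also at an unadjusted p under 0.05. Over all genes DESeq2 called 5.28% lower and 3.74% higher, so 0 of 9 says little about these genes. The 9 had 5 negative values and a median log2 fold change of -0.26, beside 57.1% and -0.24 over all genes. Without pup replicate 1 the median of the 9 was -0.81, beside 0.04 over all genes. With the background of pup replicate 1 subtracted it was -0.39, beside -0.06, so the distance from all genes depended on that library. The values furthest from 0 were those of the nucleosome-binding gene Hmgn5 (1.12 ± 0.63), Hmg20b (0.80 ± 0.53) and Hmgb3 (0.77 ± 0.88), and the most abundant, Hmgn1 and Hmgb1, were at -0.59 ± 0.71 and -0.26 ± 0.66.

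**Figure D4:**
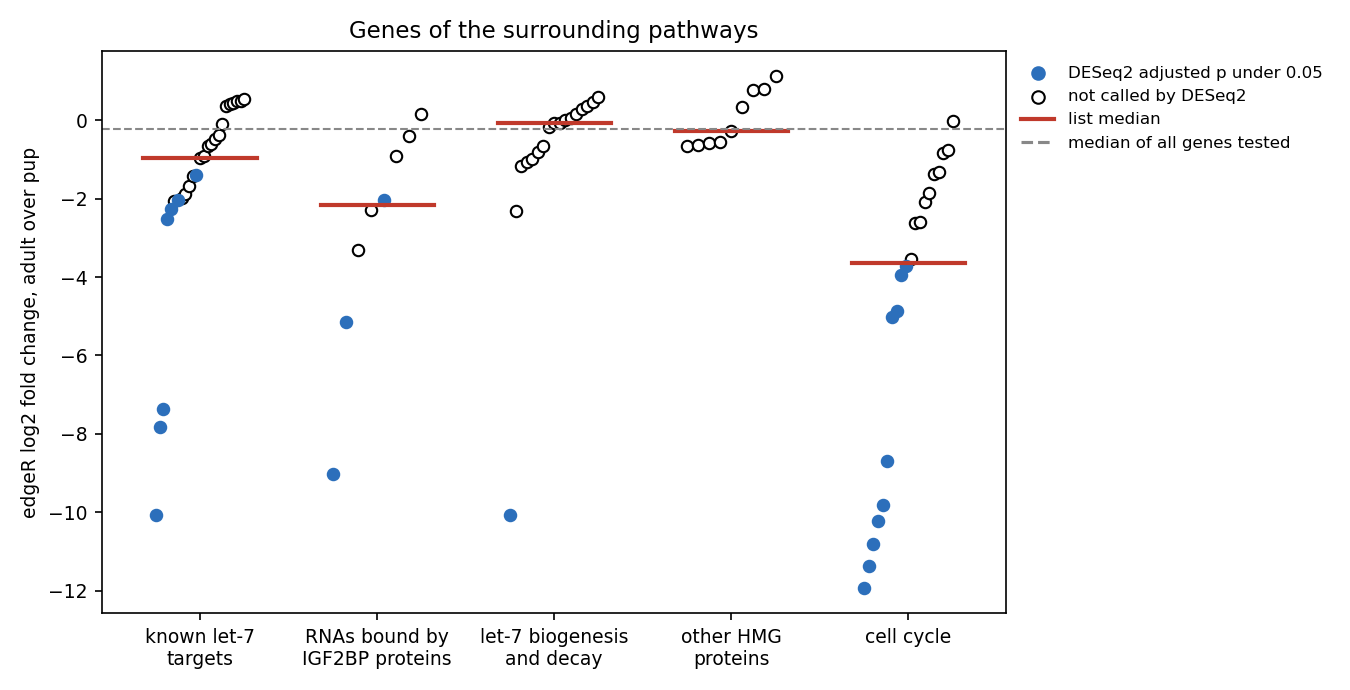
edgeR log2 fold change, adult over pup, of each tested gene in 5 lists, ordered within a list, filled blue where DESeq2 gave an adjusted p under 0.05. Red bars are list medians (-0.97, -2.17, -0.08, -0.26 and -3.64 from left to right) and the dashed line is the median of all genes tested (-0.24). Genes at 0 in both adults, such as Trim71 and Cenpf, have fitted values that are no bound.

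Of 20 cell cycle genes, DESeq2 called 10 lower and 0 higher in adults, edgeR called 0 (11 lower at an unadjusted p under 0.05), and all 20 were negative with a median log2 fold change of -3.64, beside 5.28% called lower by DESeq2, 57.1% negative and a median of -0.24 over all genes. In 16 of the 20 both adults lay below both pups, a pattern held by 25.1% of all genes, and the others overlapped between ages. For the 4 genes at 0 in both adults the filter fixed this pattern. These counts leave the background of pup replicate 1 in, and Ccnb1 had 59 counts there, with 59.0 expected. With that background subtracted, 19 of the 20 were negative with a median log2 fold change of -3.47, beside 51.7% and -0.06 over all genes. The summed level of the list, with that background left in, was 179 and 179 CPM in adults, against 434 and 948 CPM in pups. Cenpf, Kif11 and Ccnb1, a centromere protein, a spindle motor and a mitotic cyclin, had 0 counts in both adults and 37.1, 17.0 and 26.0 CPM in pup replicate 2. The replication genes Pcna and Mcm6 were present at both ages, with log2 fold changes of -0.77 ± 0.52 and -1.33 ± 0.66. The part of cell division in the levels of Igf2bp2 and Igf2bp3 was not tested. With counts as deposited, the medians of all these lists over the 4 libraries were the same with genes at 0 in both libraries of an age put at their bound.

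The levels of cell type markers also differed between the libraries, within an age as well as between ages. The summed level of 9 ionocyte markers was 8179 and 5099 CPM in adults, against 153 and 217 CPM in pups, and all 9 had counts in every library. The sum of 10 mesenchyme markers was 1256 and 22424 CPM in adults, against 23292 and 59696 CPM in pups, with 1 of the 10 at 0 in adult replicate 1. Igf2bp2 was at 0.919 CPM in adult replicate 1 and 2.95 CPM in adult replicate 2, and Igf2bp3 was at 0 in both. The sum of 8 epithelial markers was 8402 and 11480 CPM in adults, against 1192 and 3026 CPM in pups. Markers of other types were uneven between replicates: 6 endothelial markers summed to 0.0766 and 787 CPM in adults, against 99.8 and 6.25 CPM in pups, with 5 of the 6 at 0 in adult replicate 1. The 7 leukocyte markers summed to 24.5 and 18.2 CPM in adults, against 92.8 and 12.5 CPM in pups. All these marker sums leave the background of pup replicate 1 in. There 0 of the 6 endothelial and 0 of the 7 leukocyte markers were at 0, against 2 and 4 in pup replicate 2. The sums of pup replicate 1 are therefore no measure of its cell types where they are low. The 6 myoepithelial markers summed to 5123 and 2177 CPM in adults, against 4365 and 14209 CPM in pups, and 7 acinar markers to 159 and 7462 CPM in adults, against 524 and 1943 CPM in pups. In bulk libraries fewer cells of a type and less RNA per cell cannot be told apart, and the part of cell type in the results above was not tested. Fgf10 itself, the gene behind the sort, had 195 and 40.3 CPM in adults, against 24.3 and 24.0 CPM in pups (log2 fold change 2.20 ± 0.79, edgeR adjusted p = 0.284).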

How the data were processed

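RNA was sequenced from Fgf10-positive cells of the submandibular gland, sorted from adult and pup mice, in 2 libraries per age. Per the labels' protocols, libraries were made with SMART-Seq HT, a PCR-based method for whole cDNA that carries no strand mark, from 1 ng of total RNA each. The deposited values used here are raw counts of reads per Ensembl gene, and 5 tally rows that close each file (32.9% and 32.3% of reads in adults, 84.4% and 31.5% in pups) entered neither library sizes nor tests. The submitters' processing notes name cutadapt 1.18, STAR 2.5.2a, HTSeq 0.11.0, R 3.5.1, DESeq2 1.20.0 and the build GRCm38, while the counting options, strand setting and annotation release are not given. A pair of whole-series tables was set aside, since none of their 8 value columns could be tied to 1 sample by name.

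Symbols, positions and exon lengths came from GENCODE vM21 (GRCm38), which matched 53360 of 53465 gene IDs. A 3′ UTR was taken as the stretch after the stop codon of 1 coding transcript per gene. Counts as deposited were tested with edgeR 4.0.16 in R 4.3.3 (glmQLFit and glmQLFTest), with TMM factors and filterByExpr at a minimum count of 10 and a minimum total of 15. The model held age alone, log2 fold changes are adult over pup, and p-values were adjusted by Benjamini-Hochberg over all genes tested, with a threshold of 0.05. With edgeR, the SE of a log2 fold change was taken as its absolute value over the square root of the F statistic. The common biological coefficient of variation was 0.895. Alternatives were DESeq2 1.42.0, voom of limma 3.58.1, other scalings and filters, a replicate block, each library left out, and counts with the background of pup replicate 1 (exon kb times its olfactory receptor rate) subtracted. Fits that combine DESeq2 with another filter or with the subtraction, and the sum of Hmga1 and Hmga1b, were added after seeing the data. The scripts were tested on simulated data without the background of pup replicate 1. There both tools recovered most genes changed by the larger factors, and DESeq2 made many more false calls than edgeR. At the smallest factor edgeR missed most of the changed genes, while DESeq2 recovered most. Replicates of an age differed beyond counting noise (chi-square per degree of freedom 222 in adults and 155 in pups).

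The 7 genes and the lists were chosen with earlier results of these data known. All 7 were named whatever their values. From each list the 3 tested genes with the largest absolute log2 fold change and the 2 with the highest mean CPM were named, and Myc and Igf1r were named after their values were seen. For each of the 7 genes that passed the filter, the 3 protein-coding genes with the most similar profile were named.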

Additional observations from a re-analysis of the deposited data

How the results depend on the processing

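The direction of Igf2bp3, Igf2bp2 and Hmga1 was the same under all 15 alternatives, and Hmga1 was called in none of them. The fitted size of Igf2bp3, at 0 in both adults, depends on the prior count, so its narrow range shows no stability. The number of genes called depended most on the tool. edgeR called 0 with its own filter, 15 with at least 10 counts in every library of an age and 515 with no filter beyond 1 count. DESeq2 called 1472 with the edgeR filter, 1632 with the background of pup replicate 1 subtracted, 1735 with the stricter filter and 1556 with none. Leaving out 1 library at a time, edgeR called 0 to 980 genes (390 without adult replicate 1, 980 without adult replicate 2). Igf2bp2 became called under DESeq2, at -3.90 with the edgeR filter, -3.92 with the background subtracted, -3.90 with the stricter filter and -3.81 with none, and lay between -4.85 and -2.90 with 1 library left out. Igf2bp3 became called in edgeR with no filter (-12.01) and under DESeq2, at -11.62 with the edgeR filter, -11.67 with the background subtracted, -11.62 with the stricter filter and -11.55 with none, and lay between -12.19 and -11.99 with 1 library left out. Igf2bp1 (-23.31) and Lin28b (-23.27) became called in the unfiltered DESeq2 fit, from counts in pup replicate 1 alone, and were at -10.20 and -10.16 in the unfiltered edgeR fit, so these fitted values are no estimates of size. The cause of these differences between tools was not tested.

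Same-numbered libraries of the 2 ages did not deviate together (correlation of deviations -0.0343 across 16320 genes). With only 2 libraries per age this cannot tell whether they shared a day or litter, and the labels do not say. With a replicate block edgeR called 0 genes, and Igf2bp3 was at -12.12 (adjusted p = 0.136). limma-voom called 0 genes (1220 higher and 1001 lower in adults at an unadjusted p under 0.05). Under scaling by library totals the all-gene median was -0.62 on the log2 scale, beside -0.24 with TMM. The depth of 7289792 to 21490686 gene counts limits what can be said of the 4 genes at 0, and intervals from counts cover counting error only.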
